A study of Homo sapiens with 2 samples.

Results

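The genes described here encode regulators of pre-mRNA splicing: the SR proteins (symbols SRSF), the heterogeneous nuclear ribonucleoproteins (HNRNP), the MBNL and RBFOX proteins and the protein subunits of the SF3A and SF3B complexes. They were found by symbol in the authors' deposited table and joined by Entrez ID to the counts, with antisense RNAs and pseudogenes left out. This gave 47 genes of the 17392 in that table: 23 HNRNP, 11 SRSF, 9 SF3A or SF3B, 3 MBNL and 1 RBFOX gene. All 47 were found in the count files. RBFOX1, RBFOX3 and SRSF12 were not in the table and had 0 counts with cabozantinib and in DMSO, where a count of 0 allows up to 3 counts.

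RNA was sequenced from K562, an erythroid leukemia cell line grown as asynchronous cultures in RPMI medium with fetal bovine serum, which carries the BCR-ABL1 fusion. The cabozantinib culture was kept for 48 h in 1 µM cabozantinib (XL184), which blocks MET, the VEGF receptors and further kinases. The DMSO culture was kept for 48 h in the solvent alone. With 1 library in each group, differences have no replicate check and are given without a test, and all intervals cover counting error only.

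SR proteins bind short sequences in exons through RNA recognition motifs and recruit the spliceosome through a domain rich in arginine and serine, whose phosphorylation by CLK and SRPK kinases controls their location and activity. Many hnRNPs oppose exon inclusion or bind introns, and they also act in mRNA export, stability and translation. SF3A and SF3B belong to the U2 particle that recognises the branch point, while MBNL and RBFOX proteins control exons that switch during differentiation. Levels of SR and hnRNP transcripts are known to be kept in range by splicing of their own pre-mRNA into forms that nonsense-mediated decay removes.

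The cabozantinib library held 25505289 counts over 16243 genes and the DMSO library 25025243 counts over 16631 genes. The 11 markers of the erythroid leukemia line used here, among them GATA1, KLF1 and HBG1, were all measured, and their summed level was 37902 CPM (counts for each 1000000, scaled by TMM) with cabozantinib and 13677 CPM in DMSO. Of 12 markers of lymphocytes, fibroblasts, epithelial cells and hepatocytes, 2 reached 1 CPM: COL1A1 and EPCAM. The summed level was 0.363 CPM with cabozantinib and 0.660 CPM in DMSO for lymphocytes, 2.70 and 3.10 CPM for fibroblasts, and 86.2 and 70.7 CPM for the epithelial and hepatocyte list, nearly all of it EPCAM. MS4A1 and LUM were at 0 in both libraries. Erythroid markers moved with the treatment, and their part in the results below was not tested. In RNA from whole cultures, fewer cells of a kind and less RNA per cell cannot be told apart.

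With cabozantinib, 8 of the 11 SRSF genes were at least 1.5-fold higher, whereas most HNRNP and SF3 genes differed by less than that size and MBNL2 was lower. Of the 47 genes, 44 reached 1 CPM in either library and count as measured. A call of higher or lower required a difference of 1.5-fold or more (0.58 on the log2 scale) together with a 95% counting interval that did not include equality. By this rule 9 of 44 genes were higher and 1 was lower, beside 8.15% of all 12536 measured genes called higher and 12.3% called lower. The median log2 ratio, cabozantinib over DMSO, was 0.32 over the 44 genes and 0.01 over all measured genes. In all, 38 of the 44 ratios were above 0 and 6 below, beside 6392 above 0 among the 12536 measured genes. The 47 genes together took 1.63% of all counts with cabozantinib (exact 95% interval 1.63% to 1.64%) and 1.39% in DMSO (1.39% to 1.40%).

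**Figure D1:**
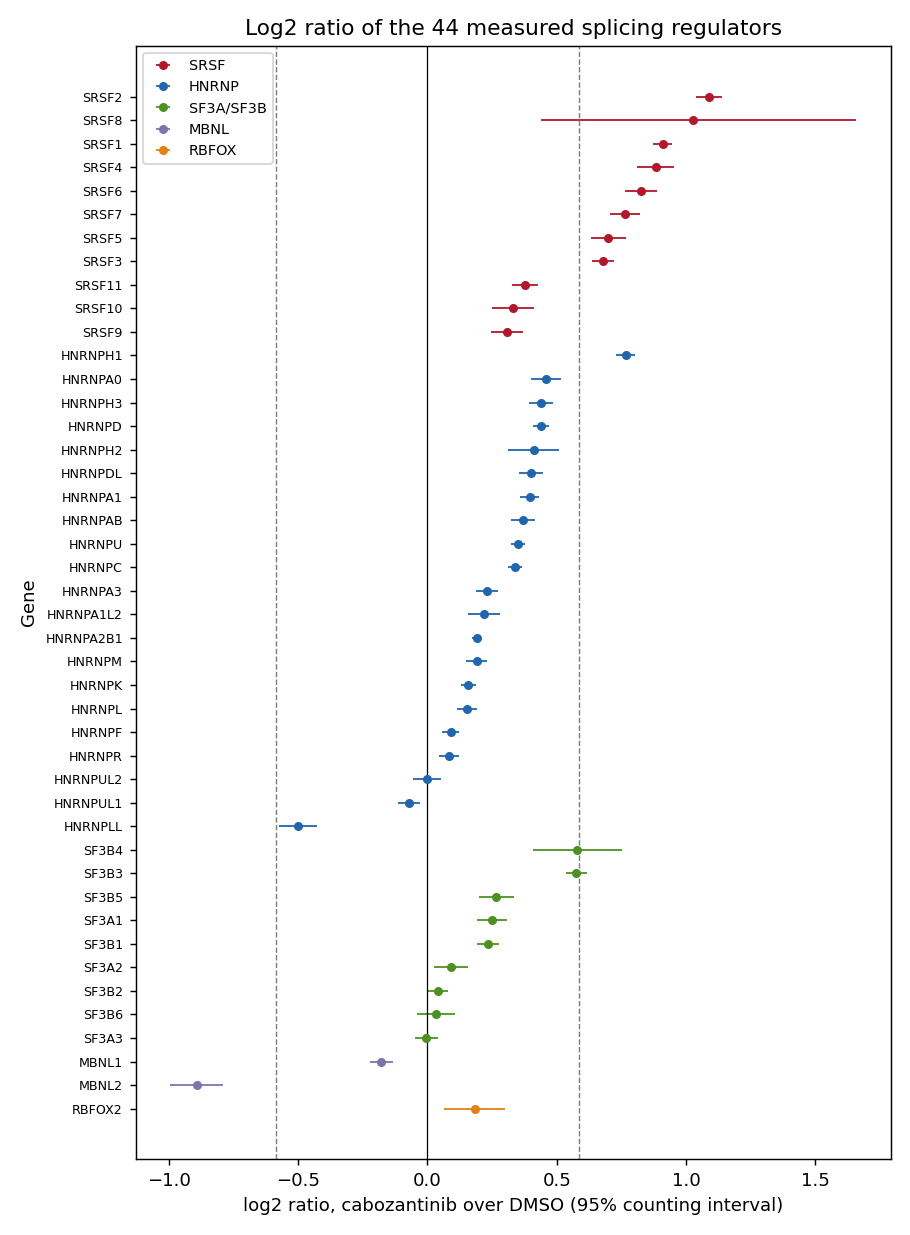
Log2 ratio (cabozantinib over DMSO, x axis) of each of the 44 measured genes (y axis), coloured by family, with bars for the 95% counting interval and dashed lines at 1.5-fold. The 8 SRSF genes and HNRNPH1 lie right of the upper line, and MBNL2 alone lies left of the lower line.

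SRSF2, also known as SC35, is an SR protein found in nuclear speckles. It had 10058 counts (406 CPM) with cabozantinib and 4923 counts (191 CPM) in DMSO, 2.13-fold higher (95% counting interval 2.05 to 2.20). Its log2 ratio of 1.09 was the largest of the 44, above that of 97.7% of measured genes. It lies on hg19 chromosome 17, 74730197 to 74733412, on the minus strand, with 2 exons in the deposited annotation. SRSF8, an SRSF2-like gene with 1 exon on chromosome 11 (94800056 to 94804388), had 71 counts with cabozantinib and 36 in DMSO, 2.04-fold higher (1.35 to 3.16). At 2.87 CPM with cabozantinib and 1.40 CPM in DMSO it was the lowest of the measured SRSF genes and the least precise. The coding sequences of SRSF2 and SRSF8 were 84.7% identical with a longest shared run of 34 bases, and reads of such shared stretches cannot be assigned with certainty.

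SRSF1, also called SF2 or ASF, is the prototype of the family and acts in constitutive and alternative splicing. It had 16591 counts (669.8 CPM) with cabozantinib and 9183 counts (356 CPM) in DMSO, 1.88-fold higher (1.83 to 1.93), on chromosome 17 at 56078280 to 56084707. SRSF9, its closest relative in the family, had 187 CPM with cabozantinib and 151 CPM in DMSO, a log2 ratio of 0.31 (0.25 to 0.37). The 2 genes thus differed by a log2 of 0.60, and their intervals did not overlap. Of the deposited exon length of SRSF9, 42.6% overlaps GATC on the opposite strand, a gene whose own log2 ratio was 0.47. The libraries were made with a stranded kit, but how strand was handled in counting is not given in the sources, so reads of the overlap cannot be assigned with certainty.

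SRSF4, SRSF5 and SRSF6, which form a branch of SR proteins with a pair of RNA recognition motifs each, were all higher. SRSF4 (chromosome 1, 29474250 to 29508637) had 177 CPM with cabozantinib and 95.9 CPM in DMSO, 1.84-fold higher (1.76 to 1.94). SRSF6 (chromosome 20, 42086504 to 42092245) had 225 CPM with cabozantinib and 127 CPM in DMSO, 1.77-fold higher (1.70 to 1.85). SRSF5 (chromosome 14, 70233829 to 70238722) had 183 CPM with cabozantinib and 113 CPM in DMSO, 1.62-fold higher (1.55 to 1.70). The intervals of SRSF4 and SRSF6 overlapped, and that of SRSF5 lay below the interval of SRSF4.

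SRSF3 and SRSF7, the small SR proteins that shuttle to the cytoplasm and link splicing to mRNA export, were also higher, and their intervals overlapped. SRSF7 (chromosome 2, 38970741 to 38978636) had 261 CPM with cabozantinib and 153 CPM in DMSO, 1.70-fold higher (1.63 to 1.77). SRSF3 (chromosome 6, 36562090 to 36572244) had 478 CPM with cabozantinib and 298 CPM in DMSO, 1.60-fold higher (1.56 to 1.65). SRSF10, known as a splicing repressor when dephosphorylated, had 112 CPM with cabozantinib and 89.3 CPM in DMSO, a log2 ratio of 0.33 (0.25 to 0.41). SRSF11, which interacts with U2AF, had 303 CPM with cabozantinib and 233 CPM in DMSO, a log2 ratio of 0.38 (0.33 to 0.43). SRSF9, SRSF10 and SRSF11 thus formed a lower tier within the family, and none of their intervals reached that of any of the other 8.

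Over the 11 SRSF genes the median log2 ratio was 0.76, with a range of 0.31 to 1.09. None was below 0. The family took 0.292% of all counts with cabozantinib (0.290% to 0.294%) and 0.186% in DMSO (0.185% to 0.188%).

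**Figure D2:**
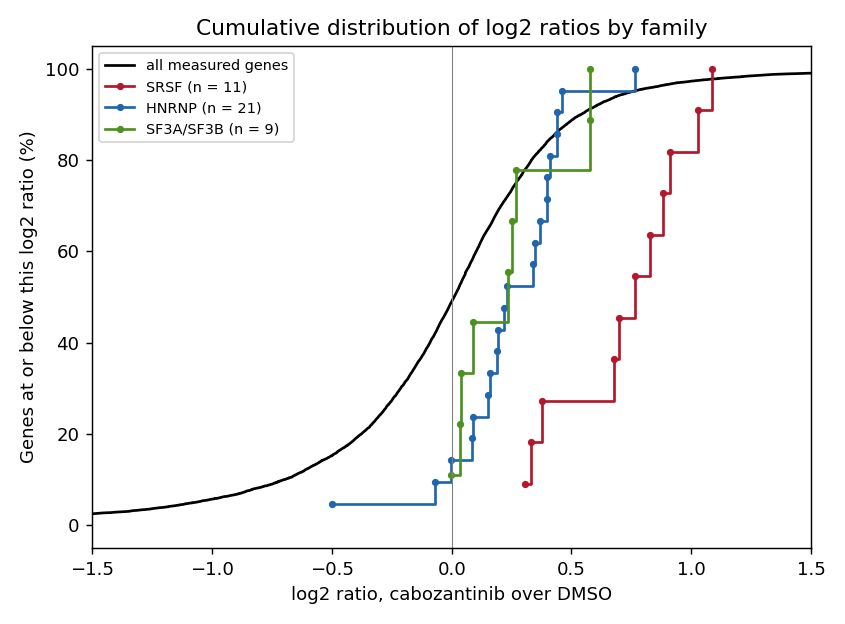
Share of genes (%, y axis) at or below each log2 ratio (cabozantinib over DMSO, x axis, shown from -1.5 to 1.5) for all measured genes, SRSF, HNRNP and SF3A/SF3B genes. The SRSF curve starts at 0.31 and has its median at 0.76, against medians of 0.23 for HNRNP, 0.24 for SF3A/SF3B and 0.01 for all measured genes.

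The bases before the start of 3 SRSF genes are shown because these were the highest family members with a mean of at least 5 CPM and a promoter in the RefSeq table (GRCh38.p14): SRSF1 (chr17:58007247-58007396, minus strand), SRSF4 (chr1:29181901-29182050, minus strand) and SRSF6 (chr20:43457746-43457895, plus strand). Each window holds the 150 bases upstream of the start, 5′ to 3′, and capitals mark the GC box GGGCGG on either strand.
SRSF1: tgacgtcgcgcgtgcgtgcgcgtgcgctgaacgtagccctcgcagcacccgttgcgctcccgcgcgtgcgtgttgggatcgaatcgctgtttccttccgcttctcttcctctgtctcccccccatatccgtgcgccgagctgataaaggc
SRSF4: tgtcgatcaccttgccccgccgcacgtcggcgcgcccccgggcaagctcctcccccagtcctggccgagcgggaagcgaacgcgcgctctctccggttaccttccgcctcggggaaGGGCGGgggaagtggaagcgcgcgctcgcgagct
SRSF6: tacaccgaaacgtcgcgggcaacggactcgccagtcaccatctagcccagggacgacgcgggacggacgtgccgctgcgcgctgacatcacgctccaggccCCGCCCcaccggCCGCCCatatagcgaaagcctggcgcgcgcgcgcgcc
Of 7 motifs searched on both strands, none of which contains another, the GC box was the only one found in these windows. SRSF1 held none, SRSF4 held 1 and SRSF6 held 2. G and C made up 64.7% of the window for SRSF1, 73.3% for SRSF4 and 72.0% for SRSF6. The median was 68.0% over the 9337 windows of measured protein-coding genes and 64.3% over the 10 SRSF windows.

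Promoter windows of this kind were matched for 43 of the 47 genes. These include HNRNPCL1, HNRNPCL2 and MBNL3, which were not measured, whereas the shares set beside them cover measured genes only. The GC box was in 3 of 10 SRSF windows and 15 of 22 HNRNP windows, beside 61.5% of the 9337 windows of measured protein-coding genes. The E-box CACGTG, the site of MYC and USF factors, was in 0 SRSF and 5 HNRNP windows, beside 6.64%. The ETS core CCGGAA was in 6 of 8 SF3A and SF3B windows, 1 SRSF and 4 HNRNP windows, beside 21.5%. CCAAT was in 11 HNRNP and 2 SRSF windows (28.1% of measured protein-coding genes), and TATAAA in 2 HNRNP windows and 1 SRSF window (2.89% of the same windows). TGACGTCA and AGATAA were in 0 of the 43, beside 2.67% and 1.77%. These are matches of letters, not sites of binding, and SRSF2 is not among the genes with a window.

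All 11 SRSF genes have a transcript that GENCODE 29 annotates as a target of nonsense-mediated decay, beside 13 of 21 measured HNRNP genes, 3 of 9 SF3A and SF3B genes and 44.6% of 11220 measured protein-coding genes matched. A retained-intron transcript is annotated for 8 of the 11 SRSF genes and for 59.1% of measured protein-coding genes. The counts are per gene and do not separate such transcripts from those that encode protein.

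Among the hnRNPs, HNRNPH1 alone was past 1.5-fold. HNRNPH1 binds runs of G and regulates exon inclusion, and it lies on chromosome 5 at 179041179 to 179050722. It had 16833 counts (679.6 CPM) with cabozantinib and 10298 counts (399.6 CPM) in DMSO, 1.70-fold higher (1.66 to 1.74). HNRNPH2, its near copy on the X chromosome, had 77.1 CPM with cabozantinib and 58.0 CPM in DMSO, a log2 ratio of 0.41 (0.31 to 0.51). Their coding sequences were 87.2% identical with a longest shared run of 50 bases, and their summed counts gave a log2 ratio of 0.73 (0.69 to 0.76). HNRNPH3, another relative, had a log2 ratio of 0.44 (0.39 to 0.49) and HNRNPF, which binds the same runs of G, one of 0.09 (0.06 to 0.12).

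HNRNPA1, a repressor of exon inclusion that counters SRSF1, had 553 CPM with cabozantinib and 421 CPM in DMSO, a log2 ratio of 0.40 (0.36 to 0.43). HNRNPA1L2, a copy on chromosome 13, had 182 CPM with cabozantinib and 156 CPM in DMSO, a log2 ratio of 0.22. The coding sequences of this pair were 98.4% identical over 960 aligned bases, and a pseudogene, HNRNPA1P10, had still more counts than either, at 709 CPM with cabozantinib and 602 CPM in DMSO. Reads of these 3 genes cannot be told apart with certainty. Their sum had 1444 CPM with cabozantinib and 1179 CPM in DMSO, a log2 ratio of 0.29 (0.27 to 0.32).

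HNRNPA2B1, a protein of the core hnRNP particle, had 1981 CPM with cabozantinib and 1734 CPM in DMSO, a log2 ratio of 0.19 (0.17 to 0.21). HNRNPA0, a binder of AU-rich elements, had a log2 ratio of 0.46 (0.40 to 0.52), and HNRNPA3 one of 0.23. HNRNPC, which coats nascent transcripts and masks uridine tracts, had 862 CPM with cabozantinib and 682 CPM in DMSO, a log2 ratio of 0.34 (0.31 to 0.37). HNRNPU, the scaffold attachment factor, had a log2 ratio of 0.35 (0.32 to 0.38). By contrast its relatives HNRNPUL1 and HNRNPUL2 were at -0.07 (-0.11 to -0.03) and -0.00 (-0.06 to 0.05). HNRNPD, the AU-rich element binder AUF1, and HNRNPDL, its neighbour on chromosome 4, had log2 ratios of 0.44 and 0.40, and HNRNPAB, a further member of that group, 0.37. The KH-domain protein HNRNPK (0.16), HNRNPM (0.19), HNRNPR (0.08) and HNRNPL (0.15) lay between 0.08 and 0.19.

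HNRNPLL, a regulator of exons of CD45 in lymphocytes, was the hnRNP with the lowest ratio. It had 104 CPM with cabozantinib and 148 CPM in DMSO, a log2 ratio of -0.50 (-0.57 to -0.43), which did not reach 1.5-fold. It differed from its paralog HNRNPL by a log2 of 0.65, and the intervals were apart. Over the 21 measured HNRNP genes the median was 0.23, and 18 ratios were above 0 and 3 below. Of the 21, 1 was called higher (4.76%), beside 8.15% of all measured genes. Scaled as TPM, which moves the median of all measured genes to -0.16, the HNRNP median was 0.06 and the number of the 44 genes above 0 was 31. The median of the 44 genes less that of all measured genes was 0.31. A change of scale moves every log2 ratio by the same amount, so it cannot alter this difference and is no check of it. Other settings did move the difference. It was 0.25 with the abundance trend removed, 0.28 with a filter of 5 CPM, 0.30 with the length trend removed and 0.34 with no filter. HNRNPCL1, an HNRNPC-like gene, had 19 counts with cabozantinib and 6 in DMSO, and HNRNPCL2 had 2 and 1, all below 1 CPM.

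The 9 genes of SF3A and SF3B gave 0 calls in either direction, beside 8.15% of all measured genes called higher and 12.3% called lower. For so few genes this is near those shares. Of the 9 counting intervals, 6 lay above 0 and 0 below. SF3B3 and SF3B4 were just inside the size limit. SF3B3, the WD40-like scaffold of the complex, had 451 CPM with cabozantinib and 302 CPM in DMSO, a ratio of 1.49 (1.45 to 1.53). SF3B4, which contacts pre-mRNA upstream of the branch point, had 27.9 CPM with cabozantinib and 18.7 CPM in DMSO, also a ratio of 1.49 (1.33 to 1.68). SF3B1, the HEAT-repeat subunit that is mutated in myelodysplasia, had 389 CPM with cabozantinib and 330.1 CPM in DMSO, a log2 ratio of 0.24 (0.19 to 0.28). SF3B5 (0.27) and SF3A1 (0.25) were like it. The remaining SF3A2 (0.09), SF3B2 (0.04), SF3B6 (0.03) and SF3A3 (-0.00) were near 0, and the intervals of the last 3 included no change.

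MBNL2 was the lower member of the set. MBNL proteins bind YGCY motifs and promote adult splice forms during differentiation. MBNL2 (chromosome 13, 97874574 to 98046374) had 1169 counts (47.2 CPM) with cabozantinib and 2258 counts (87.6 CPM) in DMSO, 1.86-fold lower (1.73 to 1.99). MBNL1, the most widely expressed paralog, had 295 CPM with cabozantinib and 334 CPM in DMSO, a log2 ratio of -0.18 (-0.22 to -0.13). MBNL1 made up 81.7% of the summed MBNL TPM with cabozantinib and 73.3% in DMSO. MBNL3 had 24 counts with cabozantinib and 20 in DMSO and was under 1 CPM. RBFOX2, which binds GCAUG and is the RBFOX form expressed outside neurons and muscle, had 50.4 CPM with cabozantinib and 44.4 CPM in DMSO, a log2 ratio of 0.18 (0.07 to 0.30).

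Levels of different genes were compared as TPM, counts divided by the deposited gene length and scaled to a common sum. TPM served to order genes within a library and to give levels and family shares for each library. Fold differences and log2 ratios between the libraries are on the TMM scale, except where TPM is named. HNRNPA2B1 was the highest of the 47 in both libraries, at 995 TPM with cabozantinib and 983 TPM in DMSO. With cabozantinib it was followed by HNRNPD (604 TPM), HNRNPH1 (562.2 TPM), HNRNPA1 (535 TPM) and HNRNPK (502 TPM). In DMSO the order after HNRNPA2B1 was HNRNPK (507 TPM), HNRNPD (502 TPM), HNRNPA1 (458 TPM) and HNRNPC (440 TPM). HNRNPH1 thus ranked 3 with cabozantinib and 7 in DMSO.

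Within the SRSF family SRSF9 was the highest by TPM, at 299.5 TPM with cabozantinib and 273 TPM in DMSO. Its level and share may include reads of GATC, which overlaps 42.6% of its length on the opposite strand. SRSF2 ranked 18 of the 47 with cabozantinib and 27 in DMSO, at 262 and 139 TPM. As shares of the summed SRSF TPM, SRSF9 held 15.4% with cabozantinib and 19.8% in DMSO, and SRSF2 held 13.5% and 10.1%. SRSF3 held 14.5% in both. SRSF1 held 11.4% with cabozantinib and 9.64% in DMSO, and SRSF11 held 10.4% and 12.7%. SRSF2 and SRSF1 thus made up more of the family's transcripts with cabozantinib, and SRSF9 and SRSF11 less. SRSF10 ranked near the bottom with 41.9 TPM with cabozantinib and 37.6 TPM in DMSO, above SRSF8 at 1.23 and 0.681 TPM.

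**Figure D3:**
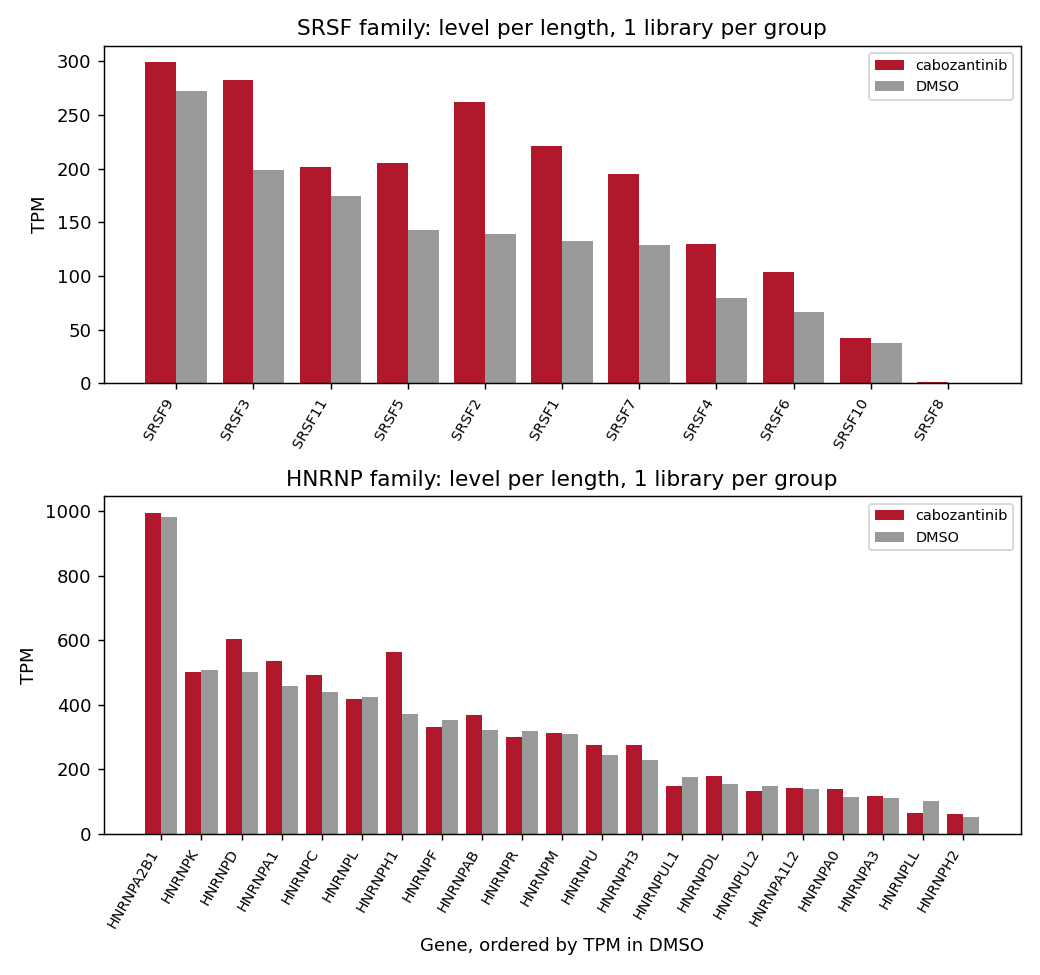
Level per length (TPM, y axis) of the 11 SRSF genes (top) and 21 measured HNRNP genes (bottom) in the cabozantinib and DMSO libraries, 1 library each and so without error bars. SRSF2 is at 262 TPM with cabozantinib and 139 TPM in DMSO, while HNRNPA2B1 is at 995 and 983 TPM.

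Other genes of the splicing pathway were described by 6 lists with 145 entries, whose counts stand beside the 8.15% of all measured genes called higher and 12.3% called lower. Of 15 measured SR protein kinases and phosphatases, 3 were higher and 1 (6.67%) was lower (median log2 ratio 0.23). PRPF4B, a kinase of the spliceosome, was 1.72-fold higher (1.66 to 1.79), at 262 CPM with cabozantinib and 152 CPM in DMSO. CLK4 was 1.66-fold higher (1.44 to 1.92) and CLK1 1.58-fold higher (1.46 to 1.72), both kinases of the SR domain. Under scaling by total counts 2 of the 15 were higher, CLK1 falling under 1.5-fold. The cytoplasmic SR protein kinases SRPK1 and SRPK2 had log2 ratios of 0.25 and -0.16, and TNPO3, which imports SR proteins into the nucleus, -0.15. DYRK1B was 1.56-fold lower (1.28 to 1.91).

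Of 27 SR-related and speckle proteins 5 were higher (18.5%) and 0 lower, and 26 ratios were above 0, with a median of 0.44. LUC7L and LUC7L2, which act at the U1 particle, were 1.90-fold (1.75 to 2.07) and 1.74-fold (1.68 to 1.80) higher. CHERP, a protein associated with the U2 particle, was 1.70-fold higher (1.61 to 1.80). The speckle scaffold SRRM2 had 1181 CPM with cabozantinib and 747 CPM in DMSO, and SRRM1 had 244 CPM with cabozantinib and 157 CPM in DMSO. The SR-like activators TRA2B and TRA2A had log2 ratios of 0.51 and 0.27, and the speckle core protein SON had 0.52. Under scaling by total counts 3 of the 27 were higher.

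Of 36 measured other splicing regulators 1 was higher (2.78%) and 3 were lower (8.33%), both shares below those over all measured genes, with a median of 0.17. TARDBP, the RNA-binding protein TDP-43, was 1.58-fold higher (1.54 to 1.63). CELF2, an antagonist of MBNL on some exons, was 2.22-fold lower (2.02 to 2.45), at 23.6 CPM with cabozantinib and 52.4 CPM in DMSO. RBM47 was 2.15-fold lower (1.83 to 2.53) and PTBP3, a polypyrimidine tract binder, 1.64-fold lower (1.59 to 1.69), at 265 CPM with cabozantinib and 435 CPM in DMSO. ESRP1, ESRP2, NOVA1 and NOVA2 were under 1 CPM.

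Shares of the remaining lists were near or below that over all measured genes. Among 20 U1, U2 and U2AF proteins 2 were higher (10.0%) and 0 lower (median 0.25), the helicases DDX46 at 1.59-fold and DHX15 at 1.55-fold. Of 27 Sm and tri-snRNP proteins 1 was higher (3.70%) and 0 lower (median 0.19), the helicase DDX23 at 1.69-fold (1.62 to 1.76). Of 15 nonsense-mediated decay factors 1 was higher (6.67%) and 0 lower (median 0.22), SMG8 at 1.56-fold (1.42 to 1.72). Under scaling by total counts, no gene of the U1, U2 and U2AF, decay factor and other regulator lists was called higher.

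**Figure D4:**
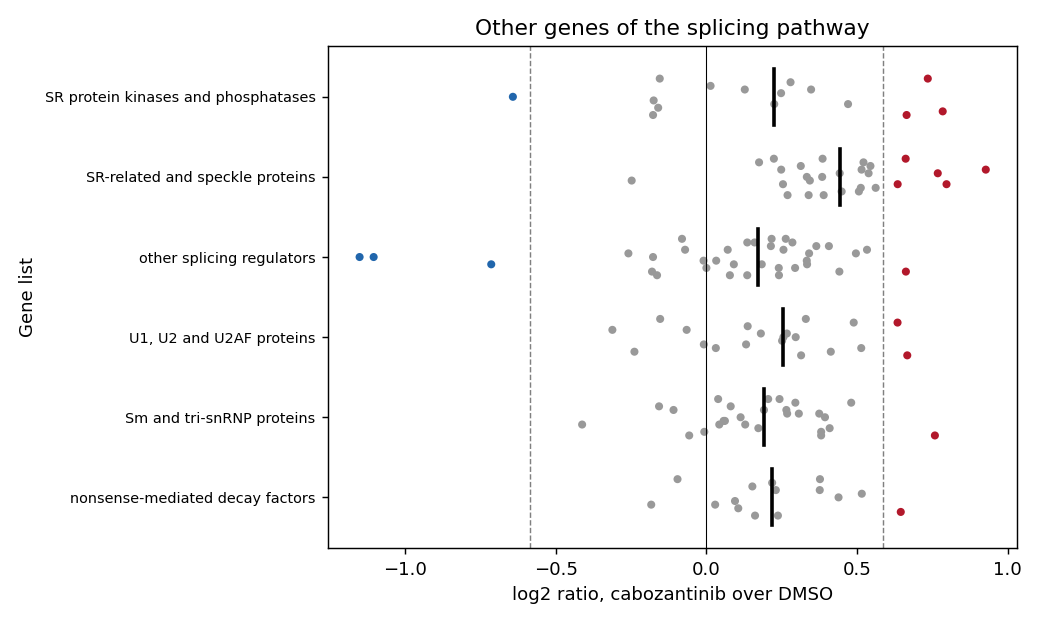
Log2 ratio (cabozantinib over DMSO, x axis) of the measured genes of 6 lists (y axis), with red points called higher, blue points called lower, black bars at the medians and dashed lines at 1.5-fold. The SR-related and speckle proteins have the highest median, 0.44, with 5 of 27 called higher.

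In the authors' deposited table, SRSF2 was the single one of the 47 genes with a posterior probability of differential expression of at least 0.95, at 0.997, with a shrunken fold of 2.11. Over its 17392 genes, 1.39% of the authors' deposited table passed that limit with a fold above 1 and 3.27% with a fold below 1. MBNL2 (0.926), SRSF1 (0.889), SRSF4 (0.882) and SRSF6 (0.724) came next in the authors' deposited table. The other genes called higher here had lower probabilities there: SRSF7 0.478, SRSF8 0.402, HNRNPH1 0.396, SRSF5 0.279 and SRSF3 0.169. All 44 measured genes had the same direction there as in the counts, which is the same data.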

How the data were processed

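The deposited files give raw counts and gene lengths by Entrez ID, made from Rsubread alignments per the file headers. The submitters' processing notes give the genome as hg19. No source used here states the aligner's version, how strand was counted or how multi-mapping reads were treated. The authors' deposited table holds a posterior probability, a score from 0 to 1, and a fold ratio per gene. Its 4 value columns without sample labels were not used, and its direction was read from the counts. Scaling used TMM factors from edgeR 4.0.16 (0.971 for cabozantinib, 1.03 for DMSO). Log2 ratios used a pseudocount of 0.5 and intervals were exact (Clopper-Pearson, 95%). TPM was computed from the counts and deposited lengths. Alternatives used size factors of DESeq2 1.42.0, total counts, upper quartile factors, filters, a pseudocount, size limits and the deposited fold. Scripts were tested on simulated counts. Gene names were matched through RefSeq, transcript types and coding sequences through GENCODE 29. The genes given in full are those past 1.5-fold, the 5 highest and lowest by ratio, the 5 highest by TPM and paralog pairs. From each list, up to 3 called genes each way were named by the bound nearest equality. Other members and list genes were named after their values were seen. Protein features are not analysed here. Members and lists were chosen with earlier results of these data known. A few markers are not reported here.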

Additional observations from a re-analysis of the deposited data

Results flagged for a closer look

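MBNL1-AS1, an antisense RNA left out of the set by its name, had 30 counts with cabozantinib and 8 in DMSO, 3.73-fold higher (95% counting interval 1.75 to 9.85). It was flagged because it was called higher among the genes left out, so the call is no separate support. At 1.21 CPM with cabozantinib and 0.310 CPM in DMSO, it reached 1 CPM only in the library where it was higher. Its deposited exons share 1033 bases with those of MBNL1 on the opposite strand, and MBNL1 itself had a log2 ratio of -0.18. How strand was handled in counting is not given in the sources, so reads of the pair cannot be assigned with certainty.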

How the results depend on the processing

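No paired analysis was possible because each group holds 1 library. The 9 genes called higher and the 1 called lower were the same under total counts, DESeq2 size factors, upper quartile factors, a pseudocount of 5, the deposited fold and with the abundance trend removed. A filter of 5 CPM dropped SRSF8, no filter added HNRNPCL1, removing the length trend added SF3B4, and TPM dropped SRSF3 and SRSF5 and gave 2 lower, HNRNPLL being added. TPM and both trends were chosen after seeing the data. At 2-fold, 2 members were higher (SRSF2 and SRSF8) and 0 lower, and at a smaller size limit (log2 0.32) 22 were higher and 2 lower. Shares of all measured genes at these limits were not computed, so the counts cannot be set against a background. The upper quartile of log2 ratios over all measured genes was 0.27. The median of the members was 0.23 under total counts and 0.15 as TPM. For SRSF it was 0.59 as TPM. For HNRNP it was 0.15 under total counts, 0.34 with no filter, 0.16 with the abundance trend removed and 0.056 as TPM. For SF3A/SF3B it was 0.15 under total counts and with the abundance trend removed, and 0.062 as TPM. For MBNL it was -0.62 under total counts, -0.18 with no filter and -0.71 as TPM, and RBFOX2 was at 0.0090 as TPM. All 11 SRSF ratios stayed above 0 under each of these scalings and trends. Higher at that smaller limit were 5 of 15 kinases, 20 of 27 SR-related proteins and 9 of 36 other regulators. So were 6 of 20 U1, U2 and U2AF proteins, 7 of 27 Sm and tri-snRNP proteins (1 lower) and 5 of 15 decay factors. These counts too lack the share of all measured genes at that limit. At 2-fold the kinases had 0 higher and 0 lower, and the other 5 lists 0 higher. The other regulators had 2 lower at 2-fold (CELF2 and RBM47), and the remaining lists 0 lower. Under total counts 2 kinases and 3 SR-related proteins were higher, and 0 of the other regulators, the U1, U2 and U2AF proteins and the decay factors. The share of all measured genes called under total counts was not computed. Without mitochondrial genes the members took 1.72% of counts with cabozantinib and 1.45% in DMSO. SRSF8, with fewer than 100 counts per library, is limited by depth.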
